A study of Mus musculus with 14 samples.

Results

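The genes of the transforming growth factor β (TGF-β) signalling pathway were examined in group 2 innate lymphoid cells (ILC2s) of the mouse lung. They are the ligand gene Tgfb1, the receptor genes Tgfbr1, Tgfbr2 and Tgfbr3, the signal transducers Smad2 and Smad3, and the inhibitors Smad7, Ski and Skil. All 9 were chosen by name and were found by symbol in both the count and the TPM tables, among 53278 genes, and all 9 passed the filter on low counts in both experiments.

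TGF-β is secreted in a latent complex and must be released before it binds a pair of kinase receptors, of which TGFBR2 binds the ligand and then phosphorylates TGFBR1. TGFBR1 in turn phosphorylates SMAD2 and SMAD3, which join SMAD4, enter the nucleus and act on target genes, while SMAD7 blocks the receptor and SKI and SKIL (SnoN) hold the SMAD complex in a repressed state. In lung lymphocytes the pathway is known for shaping tissue residency and for restraining or steering effector programs, and innate lymphoid cells respond to it.

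The study sequenced RNA of ILC2s that were sorted from the lungs of female mice older than 6 weeks as live, lineage-, CD90.2+, CD3- cells. The series text has each library from an individual mouse, while the legends of the study describe its sorted samples as pools of animals. In the stimulation experiment, cells of 8 wild-type B6 mice were left unstimulated (n = 4) or received IL-33, an alarmin, for 24 h at 20 ng/mL (n = 4). The series text has both groups in culture for that time, while the study also describes the unstimulated cells as ex vivo, and the sample labels give them no culture time, so culture itself and IL-33 may not be told apart. In the Blimp-1 experiment, cells of ControlIL7RaCre mice (called WT here, n = 3) and of Blimp-1IL7RaCre mice (KO, n = 3) were kept for 72 h with IL-33 and IL-25 at 20 ng/mL each, and the study's methods add IL-2. Both of these genotypes carry Cre at the Il7r gene, which is active in all innate lymphoid and in other lymphoid cells, so that in KO mice Blimp-1 was missing before the ILC2s were sorted and not in ILC2s alone.

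Prdm1, which encodes Blimp-1, was at 75.2, 92.8 and 74.0 CPM in WT and at 14.6, 11.5 and 11.4 CPM in KO. CPM here are counts divided by a library size that the TMM method adjusts, per 1e+06. All 12 ILC2 markers examined, Gata3 and Il1rl1 among them, had counts in every library, and after IL-33 7 of the 12 were lower and 4 higher in the test described below. Their summed level was 8066 to 9015 CPM unstimulated and 28747 to 47206 CPM after IL-33, and their part in the differences given here was not tested. A pair of libraries stood apart. IL-33 replicate 3 held 10470125 counts, against 21939818 to 32849428 in the other 7 libraries of its experiment. WT replicate 2 held 13570188 counts, of which 76.8% lay on 7 loci, the mitochondrial ribosomal RNA gene mt-Rnr2 among them, leaving 3150795 counts for all other genes, against 60369150 to 76086251 in the other 5 libraries. It also carried the fibroblast collagen gene Col1a1 at 2171 CPM, against 48.1 and 124 CPM in the other WT libraries and 139 to 268 CPM in KO. Results that turn on these libraries are also given without them. These are bulk RNA measurements, in which fewer cells of a type and less RNA per cell cannot be told apart.

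The promoters of the ligand, both kinase receptors and Smad3 are shown because their transcripts moved most or most steadily with stimulation, and because the ligand and its receptor moved in opposite directions. RefSeq promoter windows on GRCm38.p6, from 250 bases before to 50 bases after the start site, matched 5 of the 9 genes, Ski among them, and are printed 5′ to 3′ on the gene's strand. Capitals mark, on either strand, CAGAC (the SMAD box), GAAAGT (the core of the Blimp-1 motif) and CCAAT (the CCAAT box), none of which overlapped another here. The positions are chr7:25686752-25687051 (plus strand) for Tgfb1, chr4:47352972-47353271 (plus) for Tgfbr1, chr9:116175314-116175613 (minus) for Tgfbr2 and chr9:63757945-63758244 (minus) for Smad3.
Tgfb1: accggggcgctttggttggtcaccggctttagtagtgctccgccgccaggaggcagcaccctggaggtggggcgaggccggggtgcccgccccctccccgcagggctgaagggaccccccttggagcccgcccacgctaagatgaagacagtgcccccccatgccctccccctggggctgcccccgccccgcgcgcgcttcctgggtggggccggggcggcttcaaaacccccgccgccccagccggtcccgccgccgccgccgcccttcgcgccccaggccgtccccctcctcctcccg
Tgfbr1: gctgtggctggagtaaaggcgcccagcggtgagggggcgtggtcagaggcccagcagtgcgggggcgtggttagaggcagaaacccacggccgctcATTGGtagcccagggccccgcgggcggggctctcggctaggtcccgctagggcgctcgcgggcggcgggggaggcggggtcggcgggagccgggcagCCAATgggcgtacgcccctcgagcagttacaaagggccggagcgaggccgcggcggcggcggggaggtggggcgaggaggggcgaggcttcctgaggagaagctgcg
Tgfbr2: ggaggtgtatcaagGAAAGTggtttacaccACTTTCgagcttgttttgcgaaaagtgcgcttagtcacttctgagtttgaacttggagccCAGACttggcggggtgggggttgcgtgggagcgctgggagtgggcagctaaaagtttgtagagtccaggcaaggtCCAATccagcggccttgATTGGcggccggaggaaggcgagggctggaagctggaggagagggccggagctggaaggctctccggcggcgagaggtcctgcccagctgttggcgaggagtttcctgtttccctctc
Smad3: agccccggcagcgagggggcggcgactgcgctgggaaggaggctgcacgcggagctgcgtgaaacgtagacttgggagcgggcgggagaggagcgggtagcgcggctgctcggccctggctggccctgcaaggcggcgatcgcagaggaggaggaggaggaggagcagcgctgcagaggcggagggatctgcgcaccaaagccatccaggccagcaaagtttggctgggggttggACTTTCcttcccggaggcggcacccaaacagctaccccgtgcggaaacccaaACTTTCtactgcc

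The Tgfbr2 window held 1 CAGAC, 2 GAAAGT and 2 CCAAT matches. The Smad3 window held 2 GAAAGT matches, the Tgfbr1 window shown held 2 CCAAT matches, and the Tgfb1 window held no match to any of these letters. Of 32851 promoter windows of the same length, 49.6% held CAGAC, 14.3% held GAAAGT and 37.4% held CCAAT. The longer palindrome GTCTAGAC, present in 0.213% of the windows, was in none of those matched to these genes. GC content was 77% in the Tgfb1 window and 59% in that of Tgfbr2. The Tgfbr1 gene has another RefSeq start further downstream, whose window (chr4:47385966-47386265) held 1 CAGAC and 1 CCAAT match, and the Ski window held no match.

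Per unit of transcript length, Tgfb1 and Tgfbr2 had the highest mean of the 9 transcripts in all 4 groups and Tgfbr3 was the lowest. In unstimulated ILC2s the deposited TPM were 308 ± 17.1 for Tgfb1 and 212 ± 8.68 for Tgfbr2 (SD, n = 4 here and in the next sentences). Ski was at 112 ± 5.33 and Smad3 at 106 ± 6.75 TPM, and their ranges overlapped. Below them came Smad2 at 65.2 ± 2.51, Skil at 38.4 ± 2.08, Tgfbr1 at 24.7 ± 1.14, Smad7 at 16.2 ± 1.76 and Tgfbr3 at 4.32 ± 0.939 TPM, each with a range clear of its neighbours. For Smad2 the table gives a length of 3549 bases where GENCODE M21 has 8781 bases of exon, so its place in this order depends on the gene model.

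The spacing of the levels differed after IL-33. Tgfb1 reached 454 ± 109 TPM and Tgfbr2 stood at 70.7 ± 16.7 TPM, within the range of Ski (66.7 ± 12.4 TPM). Without replicate 3, Tgfb1 was at 507 ± 23.9 and Tgfbr2 at 78.9 ± 3.63 TPM (n = 3). Tgfbr2, at 75.27 to 82.53 TPM, then lay clear above Smad3 (64.53 to 69.93 TPM) and Ski (56.0 to 64.89 TPM). In the Blimp-1 experiment, a separate table normalized on its own, the order from the top in KO was Tgfb1 (460.3 ± 35.9 TPM, n = 3), Tgfbr2 (133 ± 3.38), Smad3 (89.4 ± 1.83) and Ski (85.3 ± 4.34), and the last 2 overlapped. The 2 WT libraries other than replicate 2 gave the same order, with Tgfb1 at 478 and 561 TPM and Tgfbr2 at 142 and 175 TPM.

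**Figure D1:**
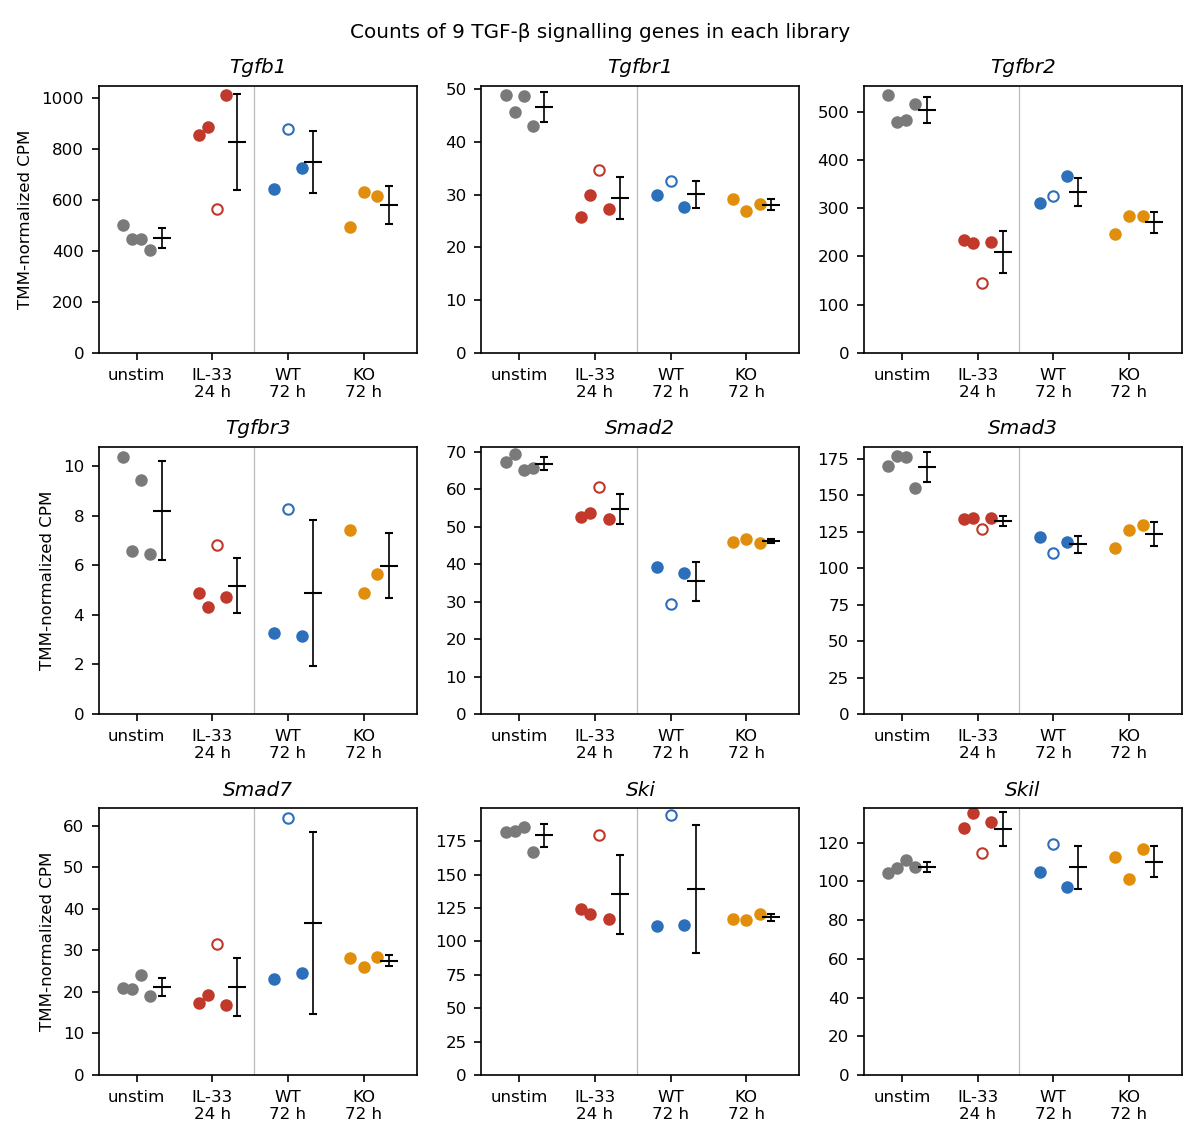
TMM-normalized counts (CPM, vertical axes from 0) of the 9 genes in each of the 14 libraries. Each point is 1 library in order of replicate number, open points are IL-33 replicate 3 and WT replicate 2, and the bars give the mean and SD of all libraries of a group; the vertical line separates the 2 experiments. Tgfb1 is higher and Tgfbr1, Tgfbr2, Smad2 and Smad3 are lower in every IL-33 library than in every unstimulated one.

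After IL-33 the ligand transcript Tgfb1 was higher, and the transcripts of both kinase receptors and of Smad2 and Smad3 were lower. In edgeR's quasi-likelihood test over 15466 genes, with Benjamini-Hochberg adjustment, 2 of the 9 genes were higher (Tgfb1 and Skil) and 4 were lower (Tgfbr1, Tgfbr2, Smad2 and Smad3). Of all genes tested, 16.2% were higher and 16.1% lower. The median log2 fold change was -0.36 over the 9 genes and 0.058 over all genes tested. DESeq2 called 2 higher and 6 lower, beside 21.4% and 20.6% of all genes. The same 6 genes that edgeR called had groups that did not overlap in CPM, 2 of them higher and 4 lower, against 17% and 20.9% of all genes.

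Without IL-33 replicate 3 the counts were 2 higher and 6 lower, with Tgfbr3 and Ski joining those that fell, while 27.5% of all genes were then higher and 29.7% lower. The scaling bears on these numbers. Scaling by total counts alone moved the median of all genes to -0.10, and limma on log2(TPM + 1) moved it to -0.25. The share of all calls that were higher was 50.2% with TMM, 32.8% with total counts alone, 17.9% with TPM and 36.9% when the 7 high loci were taken out first.

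Tgfb1 (chr7:25687002-25705077, plus strand, GRCm38) encodes the TGF-β1 precursor. Unstimulated libraries 1 to 4 were at 499.8, 446, 448 and 404 CPM, and IL-33 libraries 1 to 4 at 853, 884, 565 and 1009.8 CPM. The groups did not overlap, and replicate 3 was the lowest of the IL-33 libraries. The difference was 0.88 ± 0.17 on the log2 scale (edgeR, SE, adjusted p = 0.00538). Without replicate 3 it was 1.03 ± 0.082 (edgeR, adjusted p = 3.74e-06). On log2(TPM + 1) over all 8 libraries it kept its direction and missed the threshold, at 0.52 (limma, adjusted p = 0.0706).

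The type II receptor gene Tgfbr2 (chr9:116084293-116175360, minus strand) differed more than any other of the 9. Its unstimulated libraries were at 534, 479, 482 and 516 CPM, and its IL-33 libraries at 233, 228, 144 and 231 CPM. Every IL-33 library lay far below every unstimulated one, and replicate 3 was the lowest. The log2 fold change was -1.26 ± 0.15 (edgeR, SE, adjusted p = 0.000555) and -1.12 ± 0.056 without replicate 3 (adjusted p = 1.91e-07). Over 21 alternatives it stayed between -1.62 and -1.09, and it passed the threshold in all 21.

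The type I receptor gene Tgfbr1 (chr4:47353222-47414931, plus strand) was at 48.9, 45.7, 48.7 and 43.0 CPM in unstimulated libraries. After IL-33 it was at 25.7, 29.9, 34.7 and 27.3 CPM. The groups did not overlap, with replicate 3 the highest of the IL-33 libraries. Tgfbr1 fell by 0.67 ± 0.11 on the log2 scale (edgeR, SE, adjusted p = 0.00232), and by 0.75 ± 0.075 without replicate 3 (edgeR, adjusted p = 1.73e-05). It passed the threshold in all 21 alternatives.

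Tgfbr3 (chr5:107106570-107289629, minus strand) encodes betaglycan, a co-receptor that presents ligand to TGFBR2. It was low throughout, at 10.3, 6.56, 9.43 and 6.46 CPM unstimulated and 4.90, 4.31, 6.80 and 4.71 CPM after IL-33. The groups overlapped because of replicate 3. Its log2 fold change was -0.67 ± 0.24 and missed the threshold (edgeR, SE, adjusted p = 0.0688), and without replicate 3 it was -0.82 ± 0.19 (edgeR, adjusted p = 0.00499). Fibroblasts express Tgfbr3, and the fibroblast gene Col1a1 was likewise highest in unstimulated replicates 1 and 3 and IL-33 replicate 3, at 285, 153, 297 and 176 CPM unstimulated and 59.9, 55.7, 237 and 67.7 CPM after IL-33. A list of 12 stromal, epithelial and endothelial markers summed to 454 to 714 CPM in unstimulated and 253 to 449.9 CPM in IL-33 libraries, with 4 of the 8 markers tested lower and 1 higher, and up to 3 of the epithelial markers Krt8, Krt18, Sftpc and Scgb1a1 at 0 in a library. The part of such cells in the Tgfbr3 values was not tested.

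Both receptor-activated SMAD genes fell by small amounts. Smad3 (chr9:63646767-63757994, minus strand) was at 169.7, 177, 176 and 155 CPM unstimulated and 134, 134, 127 and 134 CPM after IL-33. All IL-33 libraries lay below all unstimulated ones, and the log2 fold change was -0.36 ± 0.061 (edgeR, SE, adjusted p = 0.00295). Without replicate 3 it was -0.34 ± 0.057 (edgeR, adjusted p = 0.000648), and it passed the threshold in all 21 alternatives.

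Smad2 (chr18:76241580-76310963, plus strand) was at 67.3, 69.3, 65.2 and 65.6 CPM unstimulated and 52.5, 53.7, 60.5 and 51.9 CPM after IL-33. Again the groups did not overlap, and replicate 3 lay nearest the unstimulated libraries. The log2 fold change was -0.29 ± 0.069 (edgeR, SE, adjusted p = 0.0132). It missed the threshold without unstimulated replicate 1 (adjusted p = 0.185), replicate 2 (0.21) or replicate 4 (0.143). Without IL-33 replicate 3 it was -0.34 ± 0.049 (edgeR, adjusted p = 0.000215).

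The 3 inhibitor genes did not move together. Skil (chr3:31095058-31122577, plus strand), which encodes the SMAD co-repressor SnoN, was at 105, 107, 111 and 108 CPM unstimulated and 128, 135, 115 and 131 CPM after IL-33. The groups did not overlap, although IL-33 replicate 3 lay close to the highest unstimulated library. Skil rose by 0.24 ± 0.064 under TMM scaling (edgeR, SE, adjusted p = 0.0219), whereas its log2(TPM + 1) difference was -0.088 (limma, adjusted p = 0.566). The call was lost without unstimulated replicate 3 (adjusted p = 0.0548) and without IL-33 replicate 1 (0.0695), 2 (0.0835) or 4 (0.0746). Without IL-33 replicate 3, Skil differed by 0.29 (adjusted p = 0.000498) under TMM scaling, by 0.11 under total counts (adjusted p = 0.0757) and by -0.018 on log2(TPM + 1) (limma, adjusted p = 0.834).

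Ski (chr4:155154075-155222592, minus strand), its paralogue, was at 182, 183, 186 and 167 CPM unstimulated and 125, 121, 179 and 117 CPM after IL-33. IL-33 replicate 3 lay among the unstimulated libraries and the other 3 lay well below them. The log2 difference was -0.41 ± 0.14 over all libraries (edgeR, SE, adjusted p = 0.0562) and -0.57 ± 0.055 without replicate 3 (edgeR, adjusted p = 1.33e-05).

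Smad7 (chr18:75367529-75395935, plus strand), an inhibitory SMAD gene that TGF-β itself induces in many cells, did not pass the test over all libraries. It was at 20.8, 20.6, 24.1 and 18.9 CPM unstimulated and 17.3, 19.2, 31.6 and 16.9 CPM after IL-33, where replicate 3 lay above every unstimulated library. The groups overlapped, and the log2 difference was 0.0057, with a 95% interval from -0.49 to 0.50 (edgeR, adjusted p = 0.988). Without replicate 3 it was -0.24, with an interval from -0.46 to -0.025 (edgeR, adjusted p = 0.0555). It passed the threshold, as lower, in 2 of 21 alternatives, which left out replicate 3 and scaled by total counts (-0.42, adjusted p = 0.00619) or used log2(TPM + 1) (-0.51, limma, adjusted p = 0.00395).

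**Figure D2:**
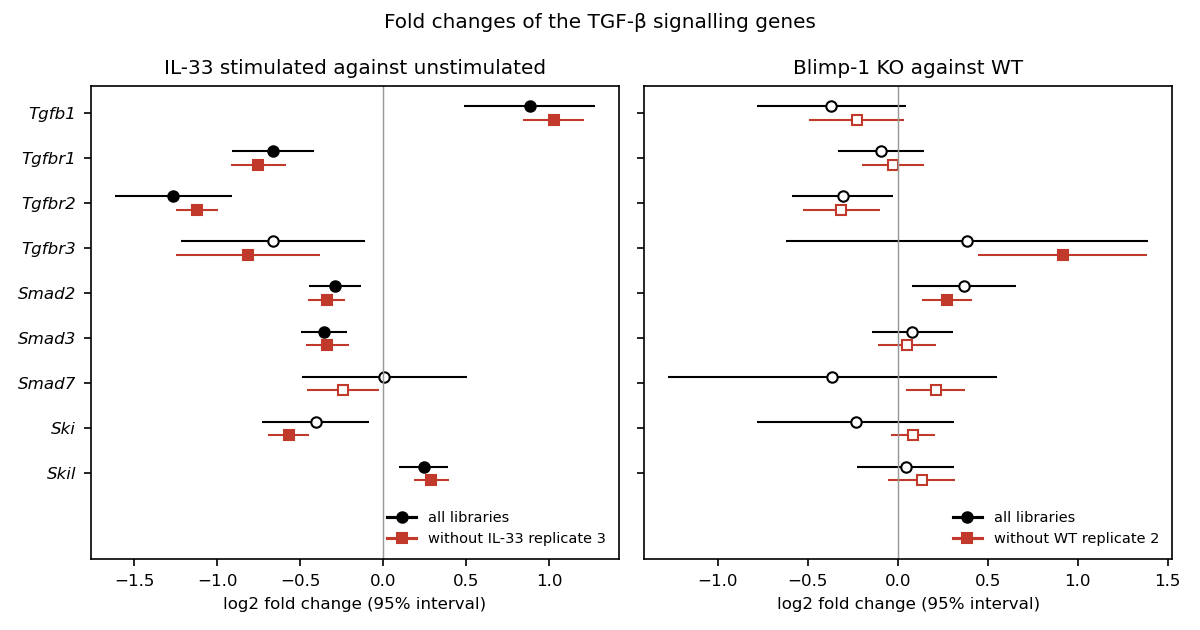
Log2 fold changes of the 9 genes (points) with 95% intervals (lines) in each comparison, from edgeR, over all libraries (circles) and without IL-33 replicate 3 or WT replicate 2 (squares); filled symbols have an adjusted p below 0.05. Tgfbr2 lies farthest below 0 after IL-33, at -1.26, and in KO no gene is filled until WT replicate 2 is left out.

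Markers of other cell types also differed between these groups. The 11 T-cell markers summed to 192 to 217 CPM in unstimulated and 50.7 to 74.9 CPM in IL-33 libraries, and 5 of the 11 were lower. They include Cd3e, although CD3- cells were sorted, and of the 11 only Cd8b1 was at 0, in 1 IL-33 library. The 6 mast-cell and basophil markers summed to 7.12 to 14.7 CPM in unstimulated and at most 0.985 CPM in IL-33 libraries. Only 1 of the 6 was tested, and it was lower. Mcpt8 was at 0 in 3 of 4 IL-33 libraries. Cma1 and Tpsb2 were at 0 in every unstimulated library, and both had counts in IL-33 replicate 4. Whether these transcripts came from cells other than ILC2s, and the part of such cells in the lower receptor and SMAD values, was not tested.

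Of 83 other genes of the pathway, 77 were tested after IL-33, and 8 were higher and 22 lower, with a median log2 fold change of -0.36, beside 16.2% higher and 16.1% lower of all genes. Without IL-33 replicate 3 the counts were 12 higher and 43 lower of 78, beside 27.5% and 29.7% of all genes. The counts of single roles rest on few genes, several lie near these shares, and they are given over all libraries first. Among 12 genes of latency and activation tested, 3 rose and 3 fell, and 4 rose and 7 fell without replicate 3. Furin, the protease that cleaves the TGF-β precursor, rose by 2.68 ± 0.25, from 820, 688, 711 and 930 CPM to 5611, 5409, 2931 and 6289 CPM (edgeR, adjusted p = 0.000161). Itgb8, an integrin subunit that releases active TGF-β, rose by 3.31 over all libraries (edgeR, adjusted p = 0.0199). Without replicate 3 it rose by 1.88 (edgeR, adjusted p = 0.000648), since that library stood at 26.6 CPM and the other 3 at 3.22 to 3.47 CPM. Its mean of 5.04 CPM over all libraries reached the 5 CPM needed for naming only through replicate 3. Lrrc32, which encodes the protein GARP that holds latent TGF-β at the cell surface, fell by 1.26 (edgeR, adjusted p = 0.00221).

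Of 10 other ligands, 0 rose and 2 fell in edgeR over all libraries, and 0 rose and 5 fell without IL-33 replicate 3. Bmp2 was at 10.7 to 14.7 CPM unstimulated and 3.71 to 4.83 CPM after IL-33, and its log2 fold change was -1.64 (edgeR, adjusted p = 0.000302). Bmp7 fell by 0.77 (edgeR, adjusted p = 0.0252), with IL-33 replicate 3 the lowest at 37.4 CPM. Tgfb2 and Tgfb3, the other isoforms of the ligand, had log2 differences of -0.62 and -0.27 that did not pass the test over all libraries. Without replicate 3, Tgfb2 fell by 1.37 (edgeR, adjusted p = 0.000448), and Tgfb3 stood at -0.34 (adjusted p = 0.206).

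Among 9 other receptor genes, 0 rose and 2 fell over all libraries in edgeR, Acvr2a and Acvr1b, which encode activin receptors. Without IL-33 replicate 3, 2 rose (Acvr1 and Bmpr2) and 4 fell, Bmpr1a and Acvrl1 in addition. DESeq2 over all libraries called 2 higher and 3 lower, beside 21.4% and 20.6% of all genes. Acvr2a went from 117 to 119 CPM unstimulated to 29.3, 25.9, 65.4 and 25.8 CPM after IL-33, a log2 fold change of -1.70 ± 0.30 (edgeR, adjusted p = 0.00372), and of -2.13 without replicate 3. Acvr1b fell by 1.15 ± 0.088 on the log2 scale (edgeR, adjusted p = 6.82e-05). Of 9 other SMAD genes and SMAD partners, 0 rose and 3 fell, and 0 rose and 6 fell without replicate 3. Smad4, the partner that both SMAD2 and SMAD3 need, fell by 0.41, and the BMP-branch genes Smad5 and Smad1 fell by 0.74 and 0.57 (edgeR, adjusted p = 0.000605, 0.000999 and 0.0064).

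Of 18 regulators, 4 rose and 5 fell over all libraries, beside 16.2% and 16.1% of all genes. Without replicate 3, 5 rose and 7 fell, beside 27.5% and 29.7% of all genes. Tgif1, a co-repressor of SMAD2, rose by 0.80 (adjusted p = 0.00289). Bambi, a pseudoreceptor, fell by 1.40 (adjusted p = 0.00248), and Nedd4l, a ubiquitin ligase for phosphorylated SMADs, fell by 0.89 (edgeR, adjusted p = 0.0104). In the branch that does not use SMADs, 2 of 6 genes were lower, and 4 without replicate 3. Tab2, an adaptor of the kinase TAK1, fell by 0.44, and the GTPase gene Rhoa by 0.43 (edgeR, adjusted p = 0.000415 and 0.00421).

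Of 13 genes that TGF-β is known to act on, 1 rose and 5 fell, and of 14 tested without IL-33 replicate 3, 1 rose and 10 fell. Klf10, an early TGF-β-induced transcription factor, was at 70.4 to 72.2 CPM in unstimulated libraries and at 17.2 to 19.6 CPM after IL-33, with no overlap. It fell by 1.95 ± 0.070 on the log2 scale (edgeR, adjusted p = 3.6e-06). Cdkn1a, a cell cycle inhibitor, rose by 1.42 (adjusted p = 0.000525), and Ctgf, a matricellular growth factor, fell by 1.28 (adjusted p = 0.00334). Id2, which innate lymphoid cells need, fell by 0.37 (edgeR, adjusted p = 0.0426). Itgae, which encodes CD103, was at 2.53 to 4.88 CPM and then 1.48 to 2.98 CPM, a log2 difference of -0.87 that missed the threshold (edgeR, adjusted p = 0.0722) and passed it without IL-33 replicate 3 (-0.75, adjusted p = 0.0428). Many of these target genes also answer to other signals, and Ctgf and Col1a1 are fibroblast genes.

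**Figure D3:**
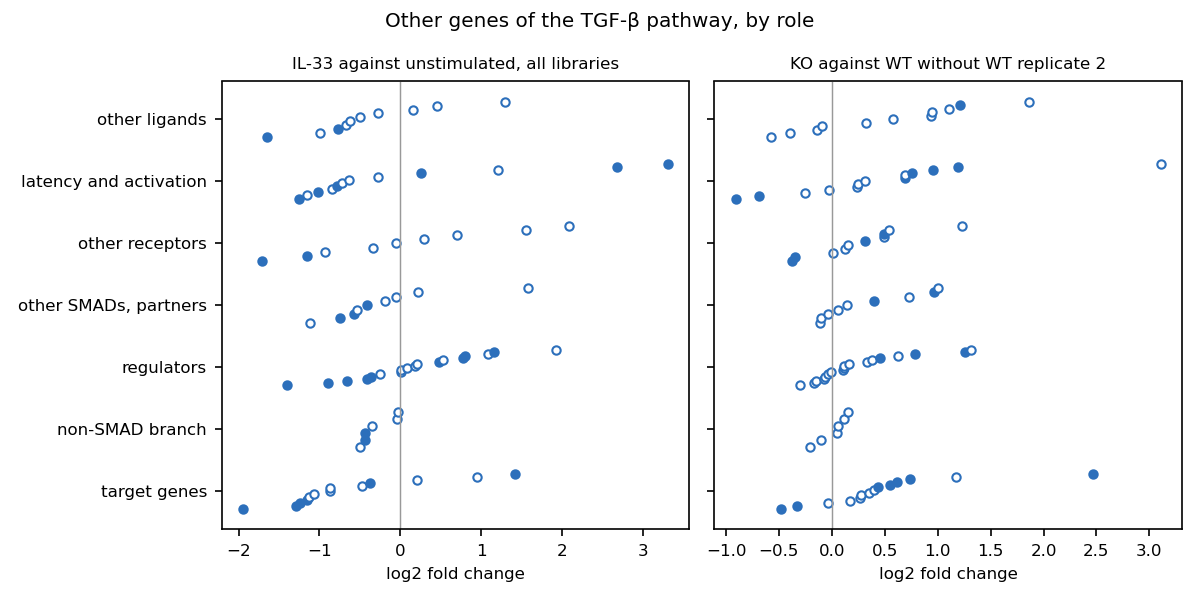
Log2 fold changes (horizontal axes) of the other pathway genes, 1 point a gene, sorted within each role; filled points have an adjusted p below 0.05 in edgeR. After IL-33, over all libraries, 8 are higher and 22 lower; in KO without WT replicate 2, 17 are higher and 6 lower, while over all 6 libraries none passed.

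None of the 9 genes differed between KO and WT past the threshold over all 6 libraries. In edgeR 0 of the 9 were called, when 0.756% of 17335 genes were (78 higher and 53 lower). DESeq2 also called 0 of the 9 and 6.08% of all genes. At an unadjusted p under 0.05, edgeR had 2 of the 9, Tgfbr2 and Smad2, and 2071 of all genes. The groups did not overlap for 1 gene that was higher in KO (Smad2) and for 2 that were lower (Tgfb1 and Tgfbr2), against 11.8% and 10.8% of all genes. Without WT replicate 2, 2 of the 9 were higher (Tgfbr3 and Smad2) and 0 lower, beside 8.25% and 5.72% of all genes, and DESeq2 then called those 2 higher and Tgfbr2 lower, beside 11.2% and 9.26% of all genes. The 5 ILC3 markers examined summed to 2.68 to 6.11 CPM in WT and 12.1 to 27.9 CPM in KO, with 1 of 4 tested higher and Il17a and Il23r at 0 in WT replicate 2. The 8 ILC1 and NK cell markers summed to 26.1 to 38.9 CPM in WT and 41.6 to 48.4 CPM in KO, with 1 of 7 tested lower and Ncr1 and Klrb1c at 0 in WT replicate 2 and Klra8 at 0 in WT replicates 1 and 3 and KO replicate 1. The part of either list in these values was not tested.

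Tgfb1 was at 643, 879.5 and 724 CPM in WT and at 493, 629.6 and 616 CPM in KO. All KO libraries lay below all WT ones, by a small margin. The log2 difference was -0.37 with a 95% interval from -0.78 to 0.044 (edgeR, adjusted p = 0.479), and -0.23 without WT replicate 2, with an interval from -0.49 to 0.037.

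Tgfbr2 was at 311, 325 and 366 CPM in WT and at 246, 283 and 283 CPM in KO, again with every KO library below every WT library. Tgfbr2 differed by -0.30, with an interval from -0.58 to -0.024 (edgeR, adjusted p = 0.375). Without WT replicate 2 it was -0.31 ± 0.091, which missed the threshold in edgeR (adjusted p = 0.0635) and passed it in DESeq2 (adjusted p = 0.0124).

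Tgfbr1 hardly differed, at 29.9, 32.6 and 27.6 CPM in WT and 29.1, 27.0 and 28.1 CPM in KO. The groups overlapped, and the interval of the log2 difference ran from -0.33 to 0.15. For Smad3 the values were 122, 110.1 and 118 CPM in WT and 114, 126 and 129.9 CPM in KO, with an interval from -0.14 to 0.31. Skil stood at 105, 119 and 97.1 CPM in WT and at 113, 101 and 117 CPM in KO, with an interval from -0.22 to 0.31. For these 3 genes a change of 1 log2 unit in either direction lay outside the interval.

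Smad2 was at 39.3, 29.5 and 37.5 CPM in WT and at 45.9, 46.8 and 45.7 CPM in KO. The KO libraries agreed closely and all lay above WT, where replicate 2 was the lowest. In KO Smad2 was higher by 0.37 ± 0.12 on the log2 scale, which missed the threshold (edgeR, SE, adjusted p = 0.294). Without WT replicate 2 it was 0.27 ± 0.059 and passed the threshold (edgeR, adjusted p = 0.0259), while on log2(TPM + 1) without that library none of the 9 genes did.

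For the other inhibitors, 1 library decided the WT values. Smad7 was at 23.2, 61.9 and 24.6 CPM in WT and at 28.1, 25.9 and 28.5 CPM in KO. WT replicate 2 was far above the other 5 libraries, and without it every KO library lay above both WT libraries. The share of all genes with such a separation without that library was not counted. Smad7 differed by -0.36 over all libraries, with an interval from -1.27 to 0.55, and 0.21 without WT replicate 2, from 0.047 to 0.38 (edgeR, adjusted p = 0.776 and 0.0885). Ski showed the same arrangement, at 112, 195 and 112 CPM in WT and 117, 116 and 121 CPM in KO. Its log2 difference was -0.23 over all libraries and 0.086 without WT replicate 2 (edgeR, adjusted p = 0.761 and 0.302).

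Tgfbr3 was at 3.26, 8.28 and 3.14 CPM in WT, which rest on 270, 34 and 297 counts, and at 7.42, 4.88 and 5.66 CPM in KO. The KO libraries lay between WT replicate 2 and the other 2 WT libraries. The log2 difference was 0.38 over all libraries, with an interval from -0.62 to 1.39 (edgeR, adjusted p = 0.786). Without WT replicate 2, Tgfbr3 was higher in KO by 0.92 ± 0.20 (edgeR, SE, adjusted p = 0.0263). In Col1a1 the KO libraries also lay between WT replicate 2 and the other WT libraries, at 48.1, 2171 and 124 CPM in WT and 139, 169 and 268 CPM in KO, and the same held for Pdgfrb, at 2.51, 49.7 and 3.602 CPM in WT and 4.94, 6.69 and 9.52 CPM in KO. The 12 stromal, epithelial and endothelial markers summed to 206, 3624 and 315 CPM in WT and to 475 to 673 CPM in KO, none of the 10 tested passed the test over all 6 libraries, and of the 12 only Sftpc and Scgb1a1 were at 0 in any library. Within KO, the library with the lowest Col1a1 (139 CPM) had the highest Tgfbr3 (7.42 CPM). The part of stromal cells in the Tgfbr3 difference was not tested. The Tgfbr3 gene also shares 4.54% of its exon bases with Gm43422, a gene model on the same strand.

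**Figure D4:**
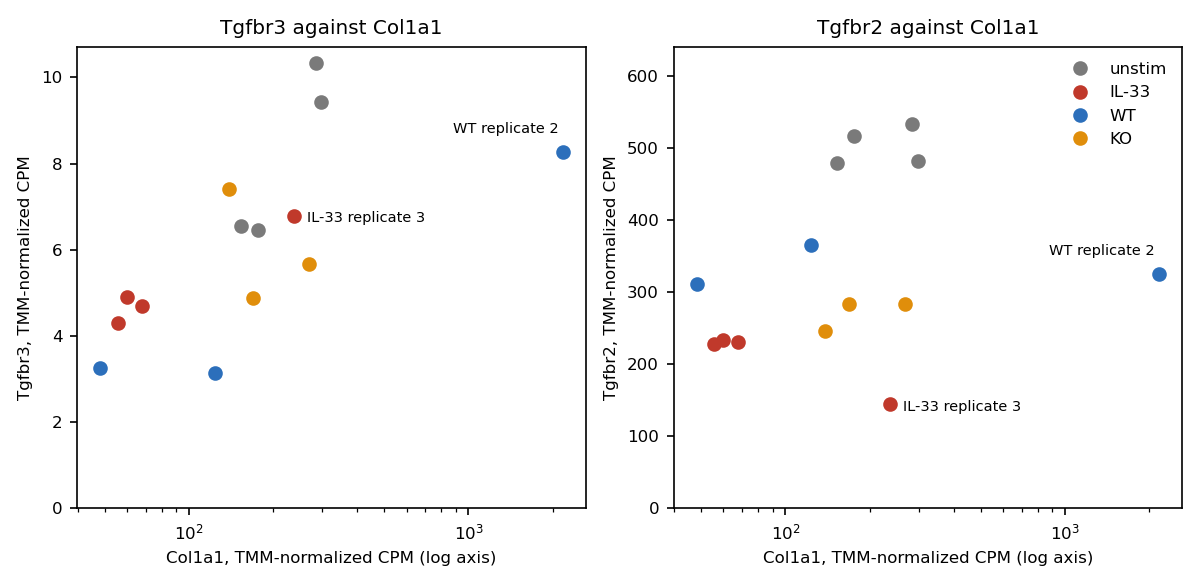
CPM of Tgfbr3 (left) and Tgfbr2 (right) against CPM of the fibroblast gene Col1a1 (horizontal log axes) in 14 libraries, 1 point a library, coloured by group; the 2 experiments were normalized separately. WT replicate 2 lies at 2171 CPM of Col1a1. The WT and IL-33 libraries with 48.1 to 124 CPM of Col1a1 have 3.14 to 4.90 CPM of Tgfbr3. Within KO, the library with the lowest Col1a1 has the highest Tgfbr3. IL-33 replicate 3, at 237 CPM of Col1a1, has the lowest Tgfbr2.

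Of the 83 other pathway genes, 81 were tested in the Blimp-1 experiment and edgeR called 0 of them over all libraries, beside 0.756% of all genes, where DESeq2 called 4 higher and 6 lower, beside 6.08% of all genes in either direction. Without WT replicate 2, edgeR called 17 higher and 6 lower, beside 8.25% and 5.72% of all genes, with a median log2 difference of 0.24 against 0.013 for all genes. The naming rule applies to the fit over all libraries, so the genes named next were chosen from the fit without WT replicate 2 after its values were seen. Pmepa1, a feedback inhibitor of the receptors, was higher in KO by 0.46 and Tgif1 by 0.78 without WT replicate 2 (edgeR, adjusted p = 0.00976 and 0.00534). Smad1 was higher by 0.40 (adjusted p = 0.0173). Of the receptor genes, Acvrl1 was higher by 0.49 and Acvr1 by 0.31 (edgeR, adjusted p = 0.0469 and 0.0336). Acvr1b was lower by 0.35 and the BMP receptor gene Bmpr1a by 0.38 (edgeR, adjusted p = 0.0174 and 0.0389). Of the latency genes, Itgb8 was lower, at 7.67, 8.04 and 8.46 CPM in WT and 3.41, 5.13 and 4.27 CPM in KO (adjusted p = 0.0171), while Ltbp2 and Mmp14 were higher by 1.19 and 0.96 (edgeR, adjusted p = 0.0155 and 0.00491). Ltbp2, Mmp14, Ctgf and Id3, which were all higher in KO in that fit, were highest of all 6 libraries in WT replicate 2, at 327, 66.0, 239 and 28.3 CPM. Over all libraries Ltbp2 stood at -1.06, Mmp14 at -0.11, Ctgf at 0.079 and Id3 at 0.0038 on the log2 scale. Pmepa1 was there at 0.13, Tgif1 at 0.52 and Acvrl1 at 0.25, and none of these passed the test (edgeR). Smad1 stood at 0.44, Itgb8 at -0.92, Acvr1b at -0.39 and Bmpr1a at -0.49 over all libraries. They missed the threshold in edgeR and passed it in DESeq2 (adjusted p = 0.0117, 0.00221, 0.00327 and 0.0378). Acvr1, at 0.26, missed it in both. Id2 was at 844, 595 and 827 CPM in WT and 648, 721 and 616 CPM in KO, lower by 0.33 without WT replicate 2 (edgeR, adjusted p = 0.0455) and by 0.19 with it (adjusted p = 0.737). Itgae was at 3.30, 5.11 and 1.33 CPM in WT and 3.31, 3.48 and 1.57 CPM in KO, with no difference that passed the test.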

How the data were processed

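RNA-seq of 14 libraries of sorted mouse lung ILC2s was used, 8 from the stimulation and 6 from the Blimp-1 experiment. SMART-seq v4 cDNA was sequenced as paired reads of 75 bases. Per the study's methods, the authors used cutadapt for trimming, HISAT2 for alignment to GRCm38 and Subread for counting per gene, while the submitters' processing notes list Bowtie2, Subread and DESeq2 on mm10. The strand used for counting is not given in the sources used here. The authors deposited raw counts, gene lengths and TPM, with 1 table of each kind per experiment, and 0 columns of libraries were left unused. The TPM of WT replicate 2 have 93.9% on 7 loci (CT010467.1, Gm23935, Gm26917, Lars2, Mir6236, Gm15564 and mt-Rnr2).

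Counts were fitted per experiment with edgeR 4.0.16 in R 4.3.3 (TMM, filterByExpr, quasi-likelihood F test, two-sided), with Benjamini-Hochberg adjustment over all genes tested and a threshold of 0.05. Only libraries of 1 experiment were compared by a test. CPM are TMM-normalized counts per 1e+06. The alternatives were DESeq2 1.42.0, RLE factors, total counts alone, no filter, a mean count of at least 50, limma 3.58.1 on log2 of TPM plus 1 or 0.1 over genes with a mean of at least 1 TPM, the replicate number as a block, the 7 loci removed, and each library left out. The 3 alternatives that combine another scaling with leaving out IL-33 replicate 3 were chosen after seeing the data. Exact permutation tests were not used, as 3 against 3 libraries cannot go below 0.1.

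By the series text, the libraries of the 2 arms came from separate mice that share only a number in the labels, and their deviations from the group means correlated from -0.145 to 0.282 in the stimulation libraries and by -0.134 to 0.122 in the WT and KO libraries, so the numbers were not taken as pairs. P-values measure the spread between sorted samples. No 2 libraries agreed within sampling noise. The 9 genes and the pathway and marker lists were chosen with earlier results of these data known. All 9 genes are given in every library. Other pathway genes are named if they passed the test over all libraries with a mean of at least 5 CPM, up to 3 per list by size of fold change. Id2 and Itgae are named in any case. Tgfb2, Tgfb3, Acvr1, Bmpr2, Bmpr1a and Acvrl1 after IL-33, and the KO genes from the fit without WT replicate 2, are named outside this rule. A gene that this rule would name is not reported here. Positions are from GENCODE M21 (GRCm38) and promoters from RefSeq on GRCm38.p6. The plots were made in matplotlib 3.10.9 under Python 3.11.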

Additional observations from a re-analysis of the deposited data

Results flagged for a closer look

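In the groups of 4 libraries, a single library far from the other 3 was searched for (Dixon's criterion at the 95% level). The search covered the 9 genes and the pathway genes that met the naming rule by their test after IL-33 (54 groups of 27 genes). Chance gives about 1 in 20 such groups. It was met in 8 groups, in each case by IL-33 replicate 3, the library with the fewest counts. That library was the highest of its group for Ski (179 CPM), Smad7 (31.6 CPM), Acvr2a (65.4 CPM), Itgb8 (26.6 CPM) and Lrrc32 (9.55 CPM). It was the lowest for Tgfbr2 (144 CPM), Smad3 (127 CPM) and Bmp7 (37.4 CPM). In none of the 27 genes did an unstimulated library meet it.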

How the results depend on the processing

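After IL-33, Tgfbr1, Tgfbr2 and Smad3 kept their direction and passed the threshold in all 21 alternatives, and Tgfb1 in 19. The number of genes higher, 2 with all libraries, was 1 under total counts alone, without a filter on low counts, without the 7 loci, and under total counts or log2(TPM + 1) without IL-33 replicate 3, and 0 under log2(TPM + 1) or log2(TPM + 0.1). It ranged from 1 to 2 when single libraries were left out. The number lower, 4 with all libraries, was 7 under total counts or log2(TPM + 1) without IL-33 replicate 3. With the replicate number as a block, 1 gene was higher and 3 were lower, Smad2 (adjusted p = 0.0671) and Skil (0.1) missing the threshold, and Smad7 was at -0.037. Smad7 also turned to -0.15 under total counts, -0.038 without a filter, -0.34 and -0.36 under log2(TPM + 1) and log2(TPM + 0.1), -0.085 without the 7 loci, and -0.24 without IL-33 replicate 3, and ranged from there to 0.096 when other single libraries were left out. Without that library it was -0.21 in DESeq2, -0.42 under total counts, -0.51 under log2(TPM + 1) and -0.24 without the 7 loci. Skil turned to -0.088 under log2(TPM + 1), to -0.090 under log2(TPM + 0.1) and to -0.018 under log2(TPM + 1) without IL-33 replicate 3. In KO, the number higher, 0 with all libraries, ranged from 0 to 2 when single libraries were left out, and DESeq2 without WT replicate 2 gave 2 higher and 1 lower. The block called 0 of the 9 genes there and 0 of all genes (1380 at an unadjusted p under 0.05). Total counts, which move the median of all genes to 0.45, turned Tgfb1 to 0.20, Tgfbr1 to 0.43, Tgfbr2 to 0.17, Smad7 to 0.46 and Ski to 0.45. Under log2(TPM + 1), with the median at 1.28, they were 1.40, 1.21, 1.39, 1.29 and 1.49, and under log2(TPM + 0.1), with the median at 1.69, 1.42, 1.61, 1.47, 1.498 and 1.58. Without WT replicate 2, Smad7 was 0.21 (0.21 in DESeq2, 0.26 under log2(TPM + 1)), Ski 0.086 (0.081 and 0.14) and, under log2(TPM + 1), Tgfbr1 0.034. When single libraries were left out, Smad7 ranged from -0.59 to 0.21, Ski from -0.36 to 0.086 and Skil from -0.018 (without WT replicate 3) to 0.13. The cause of these turns was not tested beyond the settings themselves. Depth limits Tgfbr3 most, with 34 counts in WT replicate 2.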

Other observations

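The genes whose levels followed the 9 genes most closely across the 8 stimulation libraries were listed by the Pearson correlation of log2 CPM over 10556 genes, as a description, since these libraries fall into 2 groups and share their normalization. For Tgfbr2 they were Nmur1, which encodes the neuromedin U receptor of ILC2s (r = 0.9996), Fam102a (0.9978) and Rnpepl1 (0.9975). For Tgfb1 they were the mitochondrial ribosomal gene Mrpl57 (0.9985), the translation elongation gene Eef1g (0.9979) and the phospholipid synthesis gene Pcyt1a (0.9976). For Skil they were the apoptosis gene Bax (0.9913), the tRNA synthetase gene Yars (0.989) and Grwd1 (0.9888). For Tgfbr3 they were Cyr61 (0.9792), Cetn2 (0.9755) and Fstl1 (0.9752), and Cyr61 and Fstl1 are genes that fibroblasts express strongly.

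Over the 6 libraries of the Blimp-1 experiment other genes led these lists. Tgfbr3 was followed most closely by Ldhd (0.9936), Cyp1b1 (0.9919) and Phldb2 (0.99), and Smad2 by Map3k8 (0.9992), Homer3 (0.9979) and Phf19 (0.9978). Ski was followed most closely by Polr2a (0.9995), Tcf12 (0.998) and Sept5 (0.9979), and Smad7 by Fam193a (0.9992), Vps13d (0.9991) and Sptbn1 (0.9989). Ski and Smad7 were highest in WT replicate 2, which weighs on all of these correlations.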
